A study of Caenorhabditis elegans with 34 samples.

Results

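The 8 genes of the lipl family (lipl-1 to lipl-8), which encode predicted lysosomal acid lipases, were followed together with fil-1 and atgl-1 in predicted long-lived and predicted short-lived Caenorhabditis elegans. The genes were chosen by name, with earlier results of these data known. All 10 were found among the 20223 rows of the count table. Of these, 9 passed the filter on low counts, as did 14245 genes in all, while lipl-8 did not. RNA was sequenced from pools of whole animals on day 5 of life at 25 °C on E. coli OP50. Each pool held animals from the top or the bottom 10% of a population in the brightness of 1 biomarker. Every strain carried spe-9(hc88), a temperature-sensitive mutation that blocks fertilization, so all pools were of sterile adults of 1 age. Of the biomarkers, 3 were reporter transgenes, each in a strain of its own: lin-4p::GFP (zaIs1), bright mainly in the posterior intestine, mir-243p::GFP in the whole intestine, and mir-240/786p::GFP in the spermatheca. The fourth biomarker was natural red autofluorescence of the intestine and uterus in animals without a reporter. Predicted long-lived animals were those with high lin-4p::GFP (6 libraries), high mir-243p::GFP (4), low mir-240/786p::GFP (4) or low autofluorescence (3). Predicted short-lived animals were those with low lin-4p::GFP (6), low mir-243p::GFP (4), high mir-240/786p::GFP (4) or high autofluorescence (3). "Long-lived" and "short-lived" are used below in this predicted sense.

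Lysosomal acid lipases cleave triglycerides and cholesteryl esters that reach the lysosome, as when a lipid droplet is taken up by autophagy (lipophagy), while neutral lipases work on the surface of the droplet in the cytosol. In C. elegans the intestine is the main fat store, and several lipl genes are known to be induced there when food is withdrawn, lipl-1 and lipl-3 under the opposed control of the activator HLH-30 (the TFEB homologue) and the repressor MXL-3. The product of lipl-4 is known for a lipid signal, carried from the lysosome to the nucleus by the fatty acid binding protein LBP-8, that extends life through the nuclear receptors NHR-49 and NHR-80 when lipl-4 is overexpressed. The name lysosomal acid lipase does not cover all 10 genes. ATGL-1 is the homologue of mammalian adipose triglyceride lipase and acts on lipid droplets, and fil-1 (fasting induced lipase) is a lipase gene outside the lipl family.

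The 34 libraries held 15.8 to 26.1 M counts, with a median of 20.9 M, so that 3 counts in a library, taken as the floor, correspond to 0.115 to 0.190 counts per 1000000 (CPM) of these raw totals. The CPM values below use scaled totals, so 3 counts can fall outside that range. For lipl-4 in low lin-4p::GFP sort 2 they stand for 0.1096 CPM. The 7 intestinal marker genes were all present, none of them at or under 3 counts in every library. RNA came from whole bodies. A lower value can therefore stand for a smaller share of a tissue in the RNA or for less transcript within that tissue. These cannot be told apart. Of the 10 genes, 3 were read from few counts in every library, lipl-4 from 0 to 58, lipl-6 from 0 to 76 and lipl-8 from 0 to 14. The labels do not say that sorts came from separate cultures, so p-values measure the spread between these libraries. The main fits do not use the pairing of the high and the low pool of a sort.

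Long-lived animals had more RNA of 6 lipase genes and less of 2. Over all biomarkers, lipl-1, lipl-2, lipl-3, lipl-4, lipl-5 and fil-1 rose by log2 fold changes (long over short) between 1.29 and 2.52, whereas lipl-6 and lipl-7 fell. Thus 8 of the 9 genes tested were called, at an adjusted p under 0.0001 in edgeR's quasi-likelihood test, where 40.6% of all genes were. Higher calls made up 6 of 9, against 19% of all genes, and lower calls 2 of 9, against 21.6% of all genes. The median log2 fold change of the 9 genes was 1.68, against -0.01 over all genes. At the looser threshold of 0.05 all 9 passed, as did 70.2% of all genes. Of the 14245 genes, 69 had a higher log2 fold change than lipl-2, 87 a higher one than lipl-1, 109 a higher one than lipl-4 and 151 a higher one than lipl-3. The long-lived and short-lived libraries, all biomarkers pooled, overlapped in all 10 genes, as in most others (2.13% of all genes did not overlap).

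The fasting-induced genes lipl-1, lipl-2, lipl-3 and lipl-5 were higher in the long-lived library of every sort. The lipl-1 gene (WBGene00010062, chromosome V, 12919986 to 12921692, plus strand, WBcel235) ranged over 11.7 to 43.1 CPM in the 17 long-lived libraries (median 22.8), against 1.35 to 13.4 CPM in the 17 short-lived libraries (median 4.19). The ranges met only between the lowest long-lived library, from low autofluorescence, and the highest short-lived one, low lin-4p::GFP sort 1. The gene was 5.12-fold higher in long-lived animals (log2 fold change 2.36, SE 0.226, adjusted p = 8.28e-11) and was higher in 17 of 17 sorts. For lipl-2 (WBGene00009773, chromosome V, 9791567 to 9793241, plus strand) the long-lived libraries held 17.7 to 65.9 CPM (median 23.6), against 1.29 to 20.0 CPM in the short-lived libraries (median 3.22). Here too low lin-4p::GFP sort 1 was the short-lived library that reached into the long-lived range. The gene was 5.72-fold higher (log2 fold change 2.52, SE 0.231, adjusted p = 3.17e-11), also in 17 of 17 sorts. In all, 6 lipase genes were higher in the long-lived pool of every sort, as were 12.5% of all genes.

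The transcripts of lipl-3 were rarer and more scattered. This gene (WBGene00020016, chromosome V, 521595 to 524218, minus strand) shares 23 bases of exon with srw-107 on the same strand, so a few of its reads could belong to either. It had 1.27 to 22.4 CPM in long-lived libraries (median 7.86), against 0.246 to 14.0 CPM in short-lived libraries (median 0.956). The overlap came from the lin-4p::GFP strain, where sort 1 was high in both pools, with 22.4 CPM in the long-lived pool and 14.0 CPM in the short-lived pool. It was 4.37-fold higher in long-lived animals (log2 fold change 2.13, SE 0.413, adjusted p = 3.06e-05). Without high lin-4p::GFP sort 1 the log2 fold change was 2.01 and the adjusted p of 0.000138 no longer passed. The lipl-5 gene (WBGene00022642, chromosome V, 385746 to 387740, plus strand), 134 kb from lipl-3, had the highest median level per kb of the family in long-lived animals. It reached 71.9 to 354 CPM in long-lived libraries (median 132.7), against 9.72 to 145 CPM in short-lived libraries (median 41.1). The ranges overlapped through low lin-4p::GFP libraries, which reached 145 CPM, yet each sort had more in its long-lived pool. The rise was 3.22-fold (log2 fold change 1.68, SE 0.232, adjusted p = 1.09e-07).

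**Figure D1:**
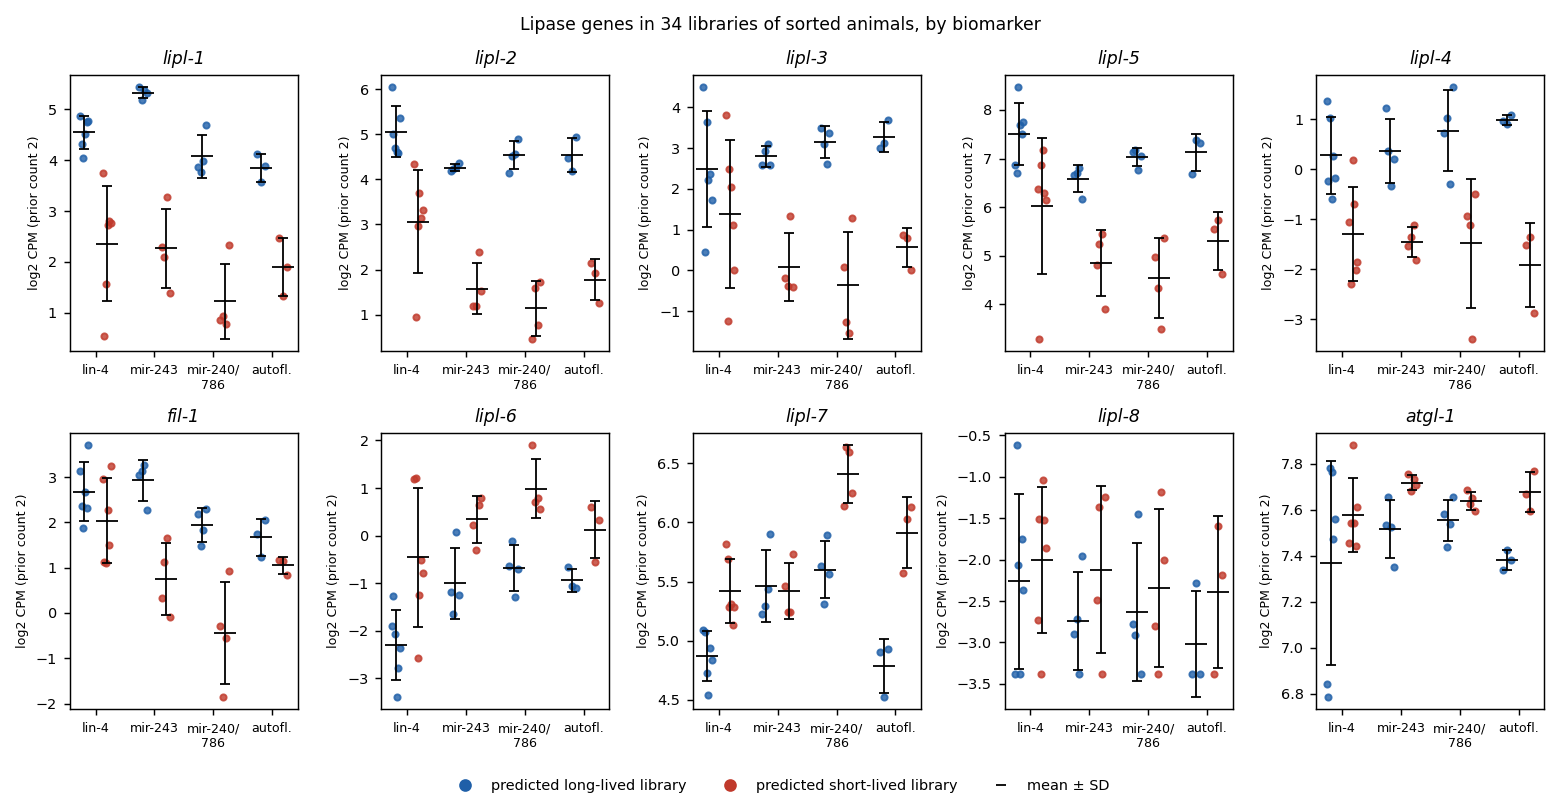
Level of each lipase gene (log2 CPM, prior count 2) in the 34 libraries, by biomarker. Points are libraries, blue for predicted long-lived and red for predicted short-lived, and the bars give mean ± SD. In the top row and for fil-1 the long-lived groups lie above the short-lived groups of the same biomarker, in lipl-6 they lie below, and the values of atgl-1 stay within 110.3 to 236 CPM throughout.

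The lipl-4 gene (WBGene00019376, chromosome V, 6550171 to 6552186, plus strand) was scarce in day 5 adults. Its exons overlap a tRNA and the non-coding RNA K04A8.15 on the opposite strand over 202 bases, and whether the counting used strand is not given in the sources used here. It had 0.570 to 3.02 CPM in long-lived libraries (median 1.55, 9 to 58 counts), against 0 to 1.03 CPM (median 0.293, 0 to 14 counts) in short-lived libraries. Of the short-lived libraries, 5 were at or under 3 counts, 1 of them at 0, and none of the long-lived libraries was. The gene was 4.79-fold higher in long-lived animals (log2 fold change 2.26, SE 0.308, adjusted p = 9.55e-08), in 17 of 17 sorts. Low depth limits the single sorts, in which the difference ran between 0.11 and 3.96 on the log2 scale. The gene fil-1 (WBGene00011321, chromosome V, 14993838 to 14995207, plus strand), named for its induction by fasting, had 2.27 to 12.9 CPM in long-lived libraries (median 4.82), against 0.182 to 9.45 CPM in short-lived libraries (median 2.08). It was 2.45-fold higher (log2 fold change 1.29, SE 0.273, adjusted p = 9.4e-05) and higher in 17 of 17 sorts, with overlapping ranges. This call stood just inside the threshold. It held only when the library left out was high lin-4p::GFP sort 2, 3, 4 or 5, low lin-4p::GFP sort 1 or 6, low autofluorescence sort 2 or high mir-240/786p::GFP sort 4, and without any 1 of the other 26 libraries the adjusted p was 0.000102 to 0.000274, the highest without high lin-4p::GFP sort 6. Scaling by library totals alone gave an adjusted p of 0.000158.

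The lipases lipl-6, lipl-7 and lipl-8, which have been characterised little, did not rise. The lipl-6 gene (WBGene00021963, chromosome V, 6931475 to 6934312, minus strand) had 0 to 0.958 CPM in long-lived libraries (median 0.324, 0 to 22 counts), against 0.0737 to 3.63 CPM in short-lived libraries (median 1.38, 1 to 76 counts). It was 3.68-fold lower in long-lived animals (log2 fold change -1.88, SE 0.316, adjusted p = 3.6e-06) and lower in 16 of 17 sorts, the exception being lin-4p::GFP sort 3, with 2 counts in the long-lived pool and 1 count in the short-lived pool. The lipl-7 gene (WBGene00008510, chromosome IV, 10239278 to 10241823, minus strand) is the family member outside chromosome V and was well covered, with 367 to 2189 counts in every library. It had 22.9 to 59.7 CPM in long-lived libraries (median 34.1), against 35.0 to 99.3 CPM in short-lived libraries (median 51.6). It was 1.49-fold lower (log2 fold change -0.58, SE 0.108, adjusted p = 1.9e-05), in 14 of 17 sorts. With library totals alone its adjusted p was 0.000157. The lipl-8 gene (WBGene00013050, chromosome V, 14745684 to 14748708, minus strand) had 0 to 14 counts in long-lived libraries and 0 to 7 counts in short-lived libraries. With 13 long-lived and 10 short-lived libraries at or under 3 counts, a difference was not detectable at this depth, and a fit without the filter gave -0.66 on the log2 scale, with an SE of 0.551 and an adjusted p of 0.307.

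The lipid droplet lipase gene atgl-1 (WBGene00015484, chromosome III, 6415772 to 6419459, minus strand) moved little. It had 110.3 to 220.1 CPM in long-lived libraries (median 184.3), against 174 to 236 CPM in short-lived libraries (median 201), with 2684 to 5305 counts in all libraries. The log2 fold change of -0.18 (SE 0.070, adjusted p = 0.0248) passed 0.05 but was not called, with 14 of 17 sorts lower. Without low lin-4p::GFP sort 3 it was -0.14 with an adjusted p of 0.0652. The lowest values came from the long-lived pools of lin-4p::GFP sorts 1 and 2, which had 114.7 and 110.3 CPM, against 178 to 220.1 CPM in the long-lived pools of sorts 3 to 6. Those sorts stood apart in lipl-6 as well, where their short-lived pools had 2.19 and 2.23 CPM, against 0.0737 to 0.606 CPM in sorts 3 to 6. With both sorts left out, the difference of atgl-1 within lin-4p::GFP was 0.005 rather than -0.16 on the log2 scale, and that of lipl-4 was 1.25 rather than 1.77 (adjusted p = 0.102), while over all biomarkers 8 lipase genes were still called.

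**Figure D2:**
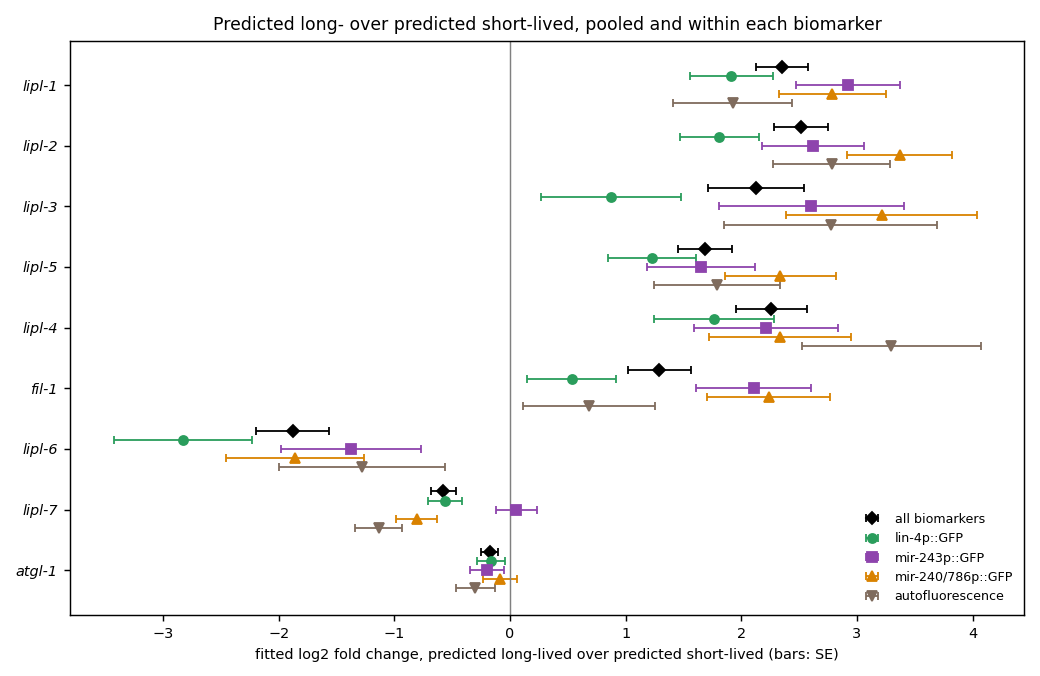
Fitted log2 fold change, predicted long-lived over predicted short-lived, for the 9 genes tested, over all biomarkers (black) and within each biomarker (colours), with bars of 1 SE. The upper 6 genes lie right of 0 under every biomarker, lipl-6 and atgl-1 lie left of it, and lipl-7 lies left of it except under mir-243p::GFP at 0.06.

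The same comparison was then made within each biomarker, where 8 of the 9 estimates had 1 sign under all 4 biomarkers (6 higher and 2 lower in long-lived animals), as did 70.2% of all genes. For lipl-2, high lin-4p::GFP libraries had 24.0 to 65.9 CPM (median 29.0), against 1.83 to 20.0 CPM (median 9.34) in low lin-4p::GFP libraries. High mir-243p::GFP libraries had 17.98, 18.6, 19.1 and 20.4 CPM, against 2.19, 2.18, 5.16 and 2.80 CPM in low mir-243p::GFP libraries. Low mir-240/786p::GFP libraries had 17.7, 22.7, 23.6 and 29.8 CPM, against 1.29, 2.90, 1.62 and 3.22 CPM in high mir-240/786p::GFP libraries. Low autofluorescence libraries had 22.2, 18.1 and 30.5 CPM, against 4.35, 3.71 and 2.30 CPM in high autofluorescence libraries. The groups of each biomarker did not overlap. The log2 fold change was 3.37 within mir-240/786p::GFP (SE 0.456, adjusted p = 7.71e-07), 1.81 within lin-4p::GFP (SE 0.341, adjusted p = 6.87e-05) and 2.78 within autofluorescence (SE 0.509, adjusted p = 8.62e-05), all 3 called. Within mir-243p::GFP it was 2.62 and missed the threshold (SE 0.438, adjusted p = 0.000131). The first was kept without any 1 of the 34 libraries. The call within lin-4p::GFP was lost without high lin-4p::GFP sort 1, 2 or 6 or low lin-4p::GFP sort 3, 4, 5 or 6 (up to 0.000365), and that within autofluorescence without any of 25 libraries, its own 6 included (up to 0.00185 without high autofluorescence sort 3). The mir-243p::GFP value passed without high lin-4p::GFP sort 1 (7.16e-05) or without low lin-4p::GFP sort 1 (5.23e-05) or 2 (6.4e-06).

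For lipl-1 the highest levels of all groups were in high mir-243p::GFP animals, with 43.1, 36.3, 41.6 and 39.8 CPM, against 4.83, 4.19, 9.63 and 2.52 CPM in low mir-243p::GFP animals. Low mir-240/786p::GFP animals had 14.5, 13.4, 15.8 and 25.6 CPM, against 1.72, 1.82, 1.62 and 4.91 CPM in high mir-240/786p::GFP animals. No group of lipl-1 overlapped its counterpart under any biomarker. The log2 fold change was 2.92 within mir-243p::GFP (SE 0.451, adjusted p = 5.73e-05), 2.78 within mir-240/786p::GFP (SE 0.462, adjusted p = 1.33e-05) and 1.91 within lin-4p::GFP (SE 0.358, adjusted p = 6.38e-05), all called, and 1.92 within autofluorescence, which passed 0.05 alone (SE 0.513, adjusted p = 0.00348). These calls were sensitive to single libraries. The call within mir-243p::GFP was lost without sort 1, 2 or 4 of either pool (up to 0.000614), that within mir-240/786p::GFP without high mir-240/786p::GFP sort 1, 2 or 3 (up to 0.000159), and that within lin-4p::GFP without high sort 1, 4, 5 or 6 or low sort 2, 3, 4, 5 or 6 (up to 0.00023).

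For lipl-3 the estimate was 0.87 on the log2 scale under lin-4p::GFP (SE 0.603, adjusted p = 0.233), 2.61 under mir-243p::GFP (adjusted p = 0.0177), 3.21 under mir-240/786p::GFP (adjusted p = 0.0018) and 2.77 under autofluorescence (adjusted p = 0.0163). The lin-4p::GFP value of lipl-3 turned on sort 1, being 0.23 without its high library (adjusted p = 0.77) and 1.70 without its low library (adjusted p = 0.0218). The mir-243p::GFP value missed 0.05 without low mir-243p::GFP sort 1, 2 or 4 (0.0538, 0.0516 and 0.0581), and the autofluorescence value without high autofluorescence sort 3 (0.0756). Its mir-243p::GFP fold change was 3.29 without low mir-243p::GFP sort 3, and its mir-240/786p::GFP fold change 4.13 without high mir-240/786p::GFP sort 4. For lipl-5 the values were 1.23 under lin-4p::GFP, 1.65 under mir-243p::GFP, 2.34 under mir-240/786p::GFP and 1.79 under autofluorescence, all past 0.05 and none called, and the last missed 0.05 without high autofluorescence sort 3 (0.0611). In lipl-5 the mir-240/786p::GFP difference was called without low lin-4p::GFP sort 2 (6.33e-06). For lipl-4 they were 1.77, 2.21, 2.33 and 3.30 in that order, again all past 0.05 and none called, with mir-243p::GFP at 0.0616 without high mir-243p::GFP sort 1. For fil-1 they were 0.53 and 0.68 under lin-4p::GFP and autofluorescence, neither past 0.05, and 2.11 under mir-243p::GFP (adjusted p = 0.00292) and 2.24 under mir-240/786p::GFP (adjusted p = 0.000882), the last becoming 2.95 without high mir-240/786p::GFP sort 4. For lipl-6, which is lower in long-lived animals, they were -2.83 under lin-4p::GFP (adjusted p = 0.00028), -1.86 under mir-240/786p::GFP (0.0103, and -1.43 with 0.0606 without high mir-240/786p::GFP sort 1), -1.37 under mir-243p::GFP (0.0995, and -1.99 with 0.0328 without high mir-243p::GFP sort 3) and -1.28 under autofluorescence (0.15). For atgl-1 they ran between -0.30 and -0.09, none past 0.05.

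Counted by biomarker, 2 of 9 lipase genes were called under lin-4p::GFP (14.2% of all genes), 1 under mir-243p::GFP (0.814% of all genes), 2 under mir-240/786p::GFP (15.1% of all genes) and 2 under autofluorescence (7.18% of all genes). At 0.05 the counts were 6, 6, 8 and 6 in that order, against 50.3%, 23.6%, 51.2% and 43% of all genes. Groups did not overlap for 3, 7, 8 and 9 of the 10 genes, where 17%, 31.5%, 56.7% and 64.9% of all genes did not. A fit with each sort as a block, which pairs the high and the low pool of that sort, called more. Within mir-243p::GFP it called 4 lipase genes (lipl-1, lipl-2, lipl-3 and fil-1) among 425 genes in all, against 116 genes without the block. Within mir-240/786p::GFP it called 6 (lipl-1, lipl-2, lipl-3, lipl-5, fil-1 and, downwards, lipl-7) among 3353 genes, against 2149 without it. Within autofluorescence the block called lipl-2, lipl-3 and lipl-7 among 2146 genes, against 1023 without it. Within lin-4p::GFP it called lipl-6 besides lipl-1 and lipl-2, at -2.84 on the log2 scale (adjusted p = 4.4e-05), among 2712 genes, against 2025 without it. Without the block, lipl-6 was called there when low lin-4p::GFP sort 3 was left out (-3.03, adjusted p = 5.77e-05). The block also brought past 0.05 the differences of lipl-3 (0.00521) and fil-1 (0.0174) within lin-4p::GFP and those of lipl-6 within mir-243p::GFP (0.00956) and autofluorescence (0.0352). Of all 14245 genes, 8666 passed 0.05 within lin-4p::GFP with the block, against 7162 without it. Within mir-243p::GFP 5308 passed, against 3357, and within autofluorescence 7765, against 6127.

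**Figure D3:**
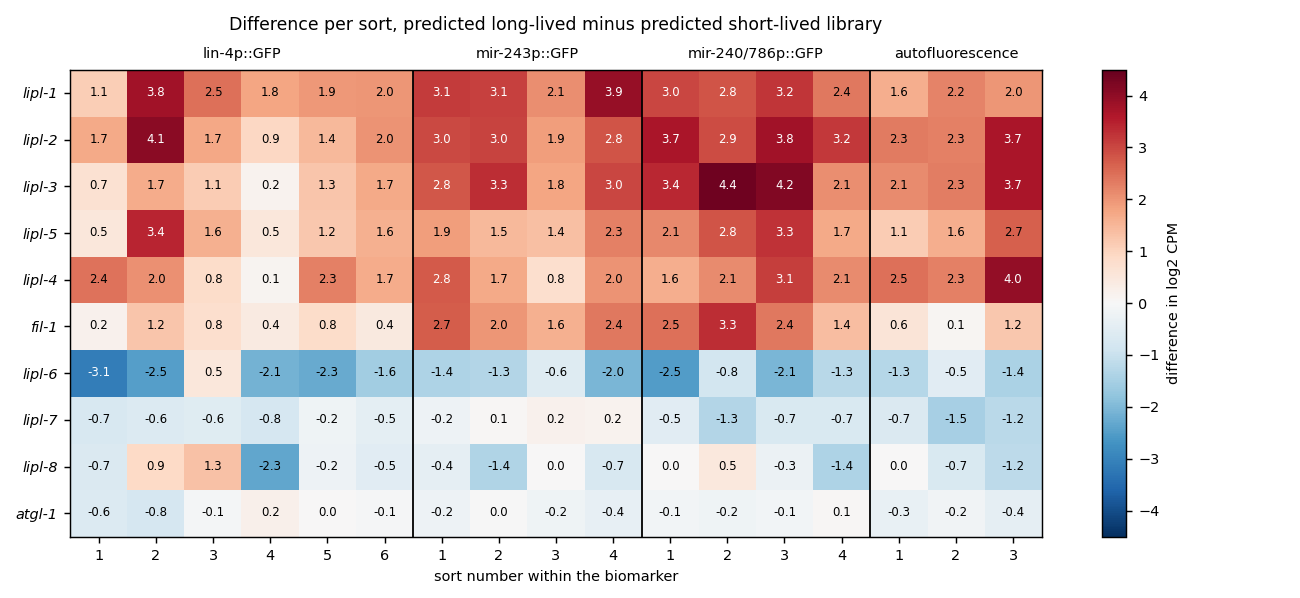
Difference in log2 CPM (prior count 2), predicted long-lived minus predicted short-lived library of the same sort, for each of the 10 genes (rows) in the 17 sorts (columns). Red is higher and blue lower in the long-lived pool. The upper 6 rows are red in 17 of 17 sorts, lipl-6 is blue in 16, and lipl-7 and atgl-1 are blue in 14 each.

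The decrease of lipl-7 was seen under 3 of the 4 biomarkers. High lin-4p::GFP libraries had 23.2 to 34.1 CPM (median 29.5), against 35.0 to 56.5 CPM (median 39.3) in low lin-4p::GFP libraries. Low mir-240/786p::GFP libraries had 49.5, 39.6, 59.4 and 47.3 CPM, against 70.5, 99.3, 96.5 and 76.0 CPM in high mir-240/786p::GFP libraries. Low autofluorescence libraries had 29.9, 22.9 and 30.3 CPM, against 47.5, 65.4 and 70.0 CPM in high autofluorescence libraries. In these 3 biomarkers every long-lived library was below every short-lived one. High mir-243p::GFP libraries, in contrast, had 37.4, 39.1, 43.2 and 59.7 CPM, against 44.0, 37.7, 37.8 and 53.1 CPM in low mir-243p::GFP libraries, and the groups overlapped. The log2 fold change of lipl-7 was 0.06 within mir-243p::GFP (SE 0.175, interval -0.29 to 0.40 at 95%). It was -0.56 within lin-4p::GFP (SE 0.144, adjusted p = 0.0018), -0.81 within mir-240/786p::GFP (SE 0.175, adjusted p = 0.000347) and -1.14 within autofluorescence (SE 0.205, adjusted p = 7.2e-05), the only one called. That call was lost without any 1 of 10 libraries (up to 0.00153): high lin-4p::GFP sort 6, low lin-4p::GFP sort 3, high autofluorescence sort 2 or 3, low autofluorescence sort 1, 2 or 3, low mir-240/786p::GFP sort 1 or 4, or low mir-243p::GFP sort 1.

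An interaction term asked whether the long-lived to short-lived difference depended on the biomarker. No gene of the 14245 was called (0%) by edgeR, 2573 genes and 3 lipase genes had an unadjusted p under 0.05, and DESeq2 called 14 genes, no lipase among them. At an adjusted p of 0.05, 1 lipase gene passed, lipl-7 (adjusted p = 0.0457), where 1.74% of all genes did. It missed 0.05 in 17 of the 34 fits with 1 library left out, with 0.109 without low mir-243p::GFP sort 2 as the highest value and 0.105 without high mir-243p::GFP sort 4 next to it. It also missed 0.05 with library totals alone (0.166) and with no filter (0.061). Without lin-4p::GFP sorts 1 and 2, lipl-2 passed 0.05 (0.013) besides lipl-7 (0.00678), where 2058 of the 14245 genes did, against 248 with all libraries. With the sort as a block, lipl-3 (0.0138), lipl-7 (0.00623) and fil-1 (0.00599) passed 0.05, 3 of 9, where 16% of all genes did. For fil-1 the estimates of that fit were 2.21 on the log2 scale under mir-243p::GFP, 2.43 under mir-240/786p::GFP, 0.64 under lin-4p::GFP and 0.66 under autofluorescence. Thus the smaller lin-4p::GFP difference of lipl-3, 0.87 beside 2.61 to 3.21, was not called as a difference between biomarkers in either fit, and passed 0.05 in the block fit alone.

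Apart from lifespan, the level of a lipase gene could differ between the 4 strains, although strain, sorting day and any sequencing batch cannot be told apart in that comparison. Of the lipase genes 1, lipl-7, was called for its level (adjusted p = 8.1e-05, with 10.3% of all genes called), and the call was lost in 23 of 34 fits with 1 library left out, with adjusted p-values up to 0.00044, and with library totals alone or no filter. Its mean level was highest in high mir-240/786p::GFP animals (6.41 log2 CPM) and lowest in low autofluorescence and high lin-4p::GFP animals (4.79 and 4.87 log2 CPM), while the groups in between, from low mir-240/786p::GFP to low mir-243p::GFP (5.60 to 5.42), did not differ beyond their spread. At 0.05 the levels of lipl-1 (0.00789), lipl-2 (0.000335), lipl-5 (0.00247) and fil-1 (0.00251) passed too, 5 of 9 in all, where 41.3% of all genes did. Without low lin-4p::GFP sort 2, lipl-2 (3.55e-05) and lipl-5 (9.71e-05) were called as well. In lipl-1 the order ran from high mir-243p::GFP (5.33 log2 CPM) over high lin-4p::GFP (4.54) to low mir-240/786p::GFP and low autofluorescence (4.08 and 3.85), which did not differ beyond their spread. In lipl-2 and lipl-5 the order began with high lin-4p::GFP animals (5.05 and 7.50 log2 CPM), and low lin-4p::GFP animals were the highest of the short-lived groups in both (3.07 and 6.03 log2 CPM). The 4 long-lived groups took the upper 4 places in lipl-1, lipl-2, lipl-3, lipl-4 and lipl-5. In fil-1 they took 3, since low lin-4p::GFP animals ranked above 2 of them, and in lipl-6 and atgl-1 they took none.

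Levels were compared between genes as CPM per kb of exonic length. In long-lived animals lipl-5 ranked first of the 10 genes (median 105.2 CPM per kb), before atgl-1 (69.8), lipl-7 (26.3), lipl-2 (18.4) and lipl-1 (17.04). In short-lived animals atgl-1 came first (76.2), before lipl-7 (39.8), lipl-5 (32.6), lipl-1 (3.13) and lipl-2 (2.53). The ranks were the same by coding length, except that lipl-3 and lipl-6 exchanged places in short-lived animals. Summed over the 8 genes, the lipl family reached 141.8 to 343.7 CPM per kb in long-lived libraries (median 179.7), against 51.6 to 164 CPM per kb in short-lived libraries (median 87.1). The ratio of this sum to atgl-1 was 2.11 to 4.83 in long-lived libraries (median 2.69) and 0.732 to 2.33 in short-lived libraries (median 1.14), and it was higher in the long-lived pool of 17 of 17 sorts. The composition of the family changed with it. The share of lipl-5 had a median of 57.5% in long-lived libraries (37.0 to 81.7%), against 42.3% in short-lived ones (10.1 to 70.05%). These ranges overlapped widely, and the short-lived low lin-4p::GFP libraries had a median of 58.05%. The combined share of lipl-1, lipl-2 and lipl-3 had a median of 22.4% in long-lived libraries (11.97 to 42.5%), against 8.13% in short-lived ones (3.05 to 24.3%). That of lipl-7 was 17.02% in long-lived libraries (5.95 to 29.99%), against 51.1% in short-lived ones (18.6 to 85.5%).

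**Figure D4:**
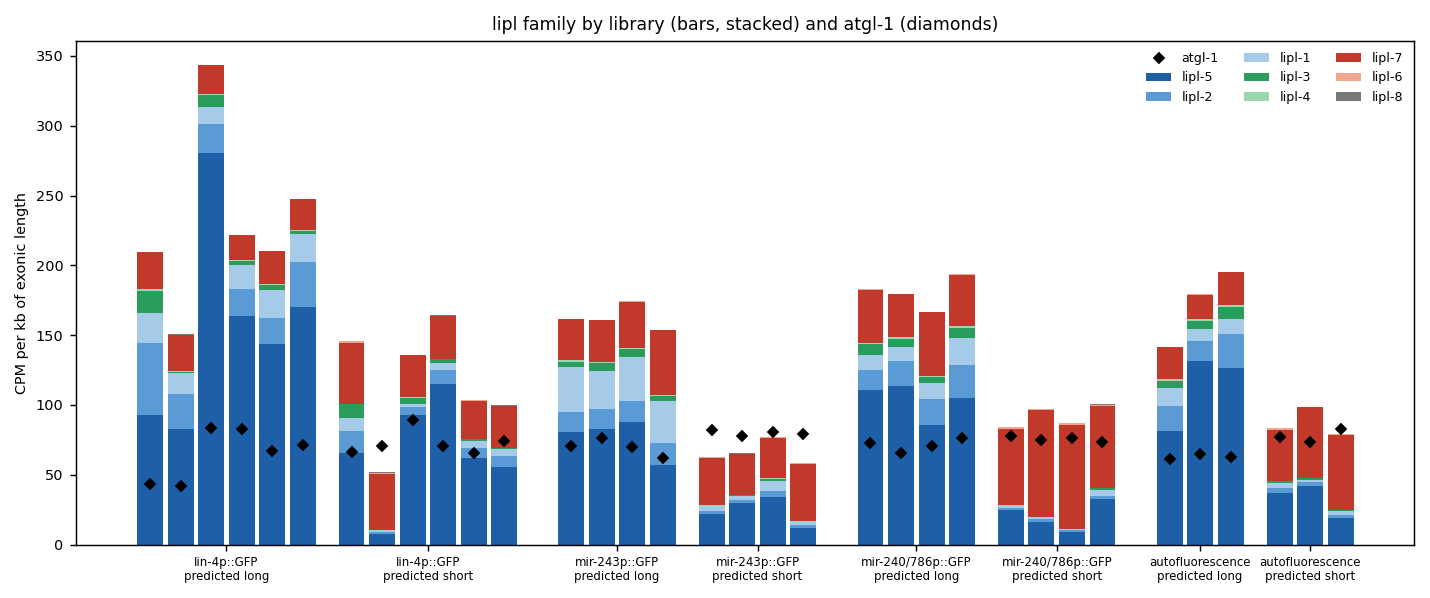
CPM per kb of exonic length of the 8 lipl genes, stacked, and of atgl-1 (diamonds), in each of the 34 libraries, with predicted long-lived left of predicted short-lived animals for each biomarker. The long-lived stacks reach 141.8 to 343.7 and hold a median of 57.5% lipl-5 (dark blue), while lipl-7 (red) makes up a median of 51.1% of the short-lived stacks and atgl-1 stays between 41.8 and 89.3.

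Some intestinal markers moved in the same direction as the lipases that rose. Of 7 intestinal genes 3 rose, namely ges-1, a gut esterase (log2 fold change 2.01), vha-6, a subunit of the proton pump of the intestinal apical membrane (1.67), and the transcription factor gene elt-7 (1.04). The other 4 were not called, with values of 0.78 for elt-2 (adjusted p = 0.000148), 0.25 for pept-1, 0.03 for ifb-2 and -0.38 for act-5. The sum of all 7 was 136.8 to 392.1 CPM in long-lived libraries (median 216.5), against 60.5 to 316 CPM in short-lived libraries (median 135). It was higher in the long-lived pool of 17 of 17 sorts. Among the 7, vha-6 had by far the largest change in median CPM, so the rise of the sum came mostly from vha-6. The sum is thus not an even measure of the intestine, and it was not examined without vha-6. The genes lipl-4, lipl-6 and lipl-8, read from few counts, were not set against it. Set against that sum, lipl-1 and lipl-2 remained higher in 17 of 17 sorts (median differences of 1.93 and 1.73 on the log2 scale). The same held for lipl-5 in 16 sorts (1.18), lipl-3 in 15 (1.51) and fil-1 in 11 (0.81). By contrast, lipl-7 was lower in 17 sorts (-1.28) and atgl-1 in 16 (-0.97). The sum itself was higher in long-lived pools by a median of 0.675 on the log2 scale. A gene with an unchanged level would therefore also come out lower against it, so the values of lipl-7 and atgl-1 include that rise. Of the other marker lists, 3 of 7 germline genes rose, their sum being 2293 to 5645 CPM in long-lived libraries and 1488 to 4246 CPM in short-lived libraries, and 3 of 5 neuronal genes fell, with sums of 266 to 3939 CPM in long-lived libraries and 329 to 3826 CPM in short-lived libraries. None of 4 body wall muscle genes was called, with sums of 131 to 763 CPM in long-lived and 47.5 to 484 CPM in short-lived libraries. Of 4 hypodermal genes 2 were tested and 1 fell, the sum being 11.1 to 206 CPM in long-lived and 13.6 to 205 CPM in short-lived libraries. Of 4 sperm genes 2 were tested and none was called, the sum being 0.927 to 15.5 CPM in long-lived and 0.658 to 5.01 CPM in short-lived libraries. The counts of all marker lists stand beside 19% of all genes called higher and 21.6% called lower. The lists are short, and the markers were chosen with earlier results of these data known. The part of tissue make-up in the lipase differences was not tested.

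The genes that control the lipases or share their pathway were examined next. The counts of each list stand beside 19% of all genes called higher and 21.6% called lower. These lists were chosen with earlier results of these data known, so the shares are not an even yardstick for them. Of 9 transcription factor genes, none rose and 3 fell, namely pha-4 (log2 fold change -0.85), a forkhead factor of gut development also needed for longevity by dietary restriction, nhr-62 (-0.76), a nuclear receptor gene, and mml-1 (-0.47), which encodes a Mondo family factor. The call of nhr-62 was lost without high lin-4p::GFP sort 3, low lin-4p::GFP sort 2, low autofluorescence sort 2 or high mir-243p::GFP sort 4 (0.000104 to 0.000128), with library totals alone (0.000239) and with no filter (0.000121). The RNA of the known activator of lipl-1 and lipl-3, hlh-30, had a log2 fold change of -0.12 (adjusted p = 0.276), that of the repressor mxl-3 0.31 (adjusted p = 0.263), and that of the insulin pathway factor daf-16 0.06 (adjusted p = 0.646). The list of lysosomal lipid signalling was wider than the signal of lipl-4, LBP-8, NHR-49 and NHR-80 described above. Of its 6 genes tested, 2 rose, nhr-80 (0.93) and lbp-2 (0.95), which encodes another fatty acid binding protein. A further 2 fell, nhr-49 (-0.50, adjusted p = 3.79e-10, lower in 17 of 17 sorts) and acox-1.1 (-0.65), an acyl-CoA oxidase gene of peroxisomal beta-oxidation. The call of acox-1.1, at an adjusted p of 9.25e-05, was lost in 23 of 34 fits with 1 library left out (up to 0.000309) and in 5 other alternatives (up to 0.000286). The gene lbp-8 reached at most 8 counts in a library and was not tested.

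Of 10 genes listed for lipid droplet lipolysis and its control, 1 rose, lid-1 (log2 fold change 0.29, adjusted p = 2.4e-05), the partner protein of ATGL-1. Another 3 fell. These were hosl-1 (-0.62), the hormone-sensitive lipase homologue, abhd-5.2 (-1.01), an ABHD5-like gene, and gsa-1 (-1.09), the stimulatory G protein upstream of protein kinase A. Among 9 genes tested of the fasting response, 4 were called higher and none lower. They were ech-9 (2.26), an enoyl-CoA hydratase gene, cpt-4 (1.75), a carnitine palmitoyltransferase gene, icl-1 (1.60), which encodes the glyoxylate cycle enzyme, and hacd-1 (1.17), a hydroxyacyl-CoA dehydrogenase gene. The median log2 fold change of this list was 1.26. Of 12 genes of fat synthesis and desaturation, 4 rose and 2 fell. The 3 largest rises were those of the delta-9 desaturase genes fat-7 (2.77) and fat-5 (2.26) and of acs-22 (0.97), which encodes an acyl-CoA synthetase, whereas fasn-1 (-1.75), the fatty acid synthase, and acl-4 (-0.46), an acyltransferase gene, fell.

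**Figure D5:**
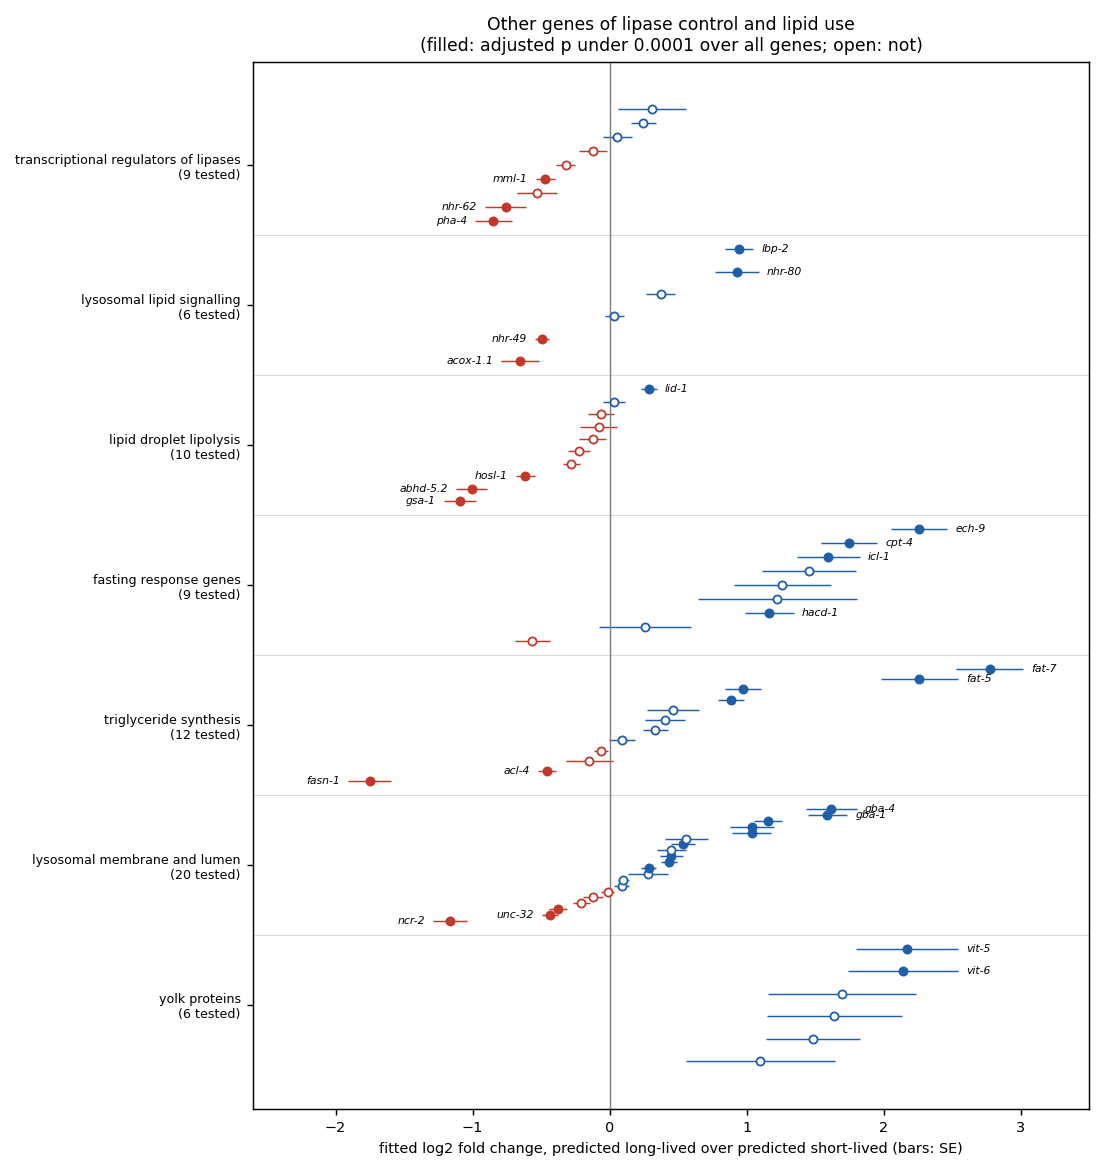
Fitted log2 fold change over all biomarkers, predicted long-lived over predicted short-lived, with bars of 1 SE, for the tested genes of 7 lists around the lipases. Filled points are called (adjusted p under 0.0001) and open points are not. The fasting list holds 4 filled points right of 0 and none left of it, and an open point left of 0, lbp-1 (-0.56). Among the regulators 3 filled points lie left of 0 and none right of it.

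Of 20 other lysosomal genes, 9 rose, led by gba-4 (1.62) and gba-1 (1.59), homologues of the lysosomal glucocerebrosidase, and cpz-1 (1.15), a cathepsin Z. The 3 that fell were ncr-2 (-1.17) and ncr-1 (-0.38), homologues of the Niemann-Pick C1 sterol transporter, and unc-32 (-0.44), a subunit of the vacuolar proton pump. The median of this list was 0.36 on the log2 scale. Of 6 vitellogenin (yolk protein) genes, 2 rose, vit-5 (2.17) and vit-6 (2.14, not called by DESeq2 with an adjusted p of 0.000122), and 4 were not called. Several of these lists hold near-identical copies, the vit genes above all and also fat-6 with fat-7, and how the counting treated reads that match more than 1 of them is not given in the sources used here, so single values within them are uncertain. The lipl genes are themselves related in sequence, and the same limit holds for reads they share.

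The genes most like each called lipase gene were found from the 34 libraries after the mean of each of the 8 groups was subtracted, so that the long-lived to short-lived difference itself did not enter. They are correlations across libraries that share strains and sorting days. For lipl-5 they were the C-type lectin genes clec-50 (r = 0.937) and clec-63 (0.913). For lipl-1 they were spp-8 (0.849), a saposin-like gene, and chil-22 (0.847), a chitinase-like gene, and for lipl-2 F42A10.6 (0.845) and asm-3 (0.832), an acid sphingomyelinase gene. For lipl-3 they were ilys-2 (0.862), an invertebrate lysozyme gene, and asp-17 (0.850), an aspartyl protease gene. The scarce lipl-4 had lower values, 0.737 with T05E12.6 and 0.731 with the cathepsin gene cpz-1. For fil-1 they were tig-3 (0.806) and F49C12.7 (0.800). The genes that fell had other partners, lipl-7 ced-8 (0.898) and T22C8.3 (0.895), and lipl-6 cdka-1 (0.851) and C18B2.4 (0.831). Among lipl-1, lipl-2, lipl-3 and lipl-5 themselves the 6 correlations ran between 0.522 and 0.780. The correlation of lipl-5 with lipl-7 was -0.576 and that with lipl-6 -0.458.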

How the data were processed

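Per the labels and the study's methods, pools were lysed in TRIzol, RNA was selected by poly(A) and depleted of ribosomal RNA, and cDNA was primed with random hexamers. The authors deposited raw counts for 20223 features in 34 libraries, without normalization. The submitters' processing notes name STAR 2.7.3a, featureCounts and WBcel235, while annotation, strand use and the treatment of reads matching several genes are not given in the sources used here. The Ensembl annotation of WBcel235 supplied positions, lengths and overlaps.

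A gene was kept if 26 or more of the 34 libraries (75%) had 5 or more counts. The gfp row stayed in library sizes and was not tested. Libraries were scaled by TMM (trimmed mean of M values), and a prior count of 2 was added for log2 CPM. Tests were edgeR 4.0.16 quasi-likelihood F-tests (R 4.3.3), adjusted by Benjamini and Hochberg's method across the 14245 genes and called at an adjusted p under 0.0001, the study's threshold, with 0.05 beside it. The pooled difference came from an additive model with biomarker, and the differences within biomarkers and the interaction from 8 group means over all libraries, so that each biomarker shares the spread of the others. The model was also run on simulated data, in which libraries were drawn independently, without deviations shared within a sort. The outcome of that run is not used here. Alternatives were the sort as a block, DESeq2 size factors, library totals alone, DESeq2 1.42.0, other filters, lin-4p::GFP sorts 1 and 2 left out, only the libraries of 1 biomarker, and each library left out in turn. The sequencing batch in the study's own model is not in the labels and was not fitted.

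The labels number the sorts, and a sort yielded 1 high and 1 low pool. Deviations from the group means within a sort correlated at -0.071 to 0.571, over 0.1 in 11 of 17 sorts, and in 12 of 17 the own partner gave the highest value. No 2 libraries of a group agreed within counting noise. Floors cover counting error only, and fitted intervals cover the spread between libraries. The genes, the pathway lists (lipase regulators, lysosomal lipid signalling, lipid droplet lipolysis, fasting, triglyceride synthesis, lysosomal membrane and lumen, yolk) and the markers were chosen with earlier results of these data known. Besides the 10 lipase genes, the text names hlh-30, mxl-3, daf-16, nhr-49, nhr-80, lbp-8, lid-1 and hosl-1, up to 3 called genes per direction of each list by fold change, all intestinal markers, and the 2 genes most correlated with each called lipase gene. The gene hacd-1 falls outside this rule and was named after its value was seen.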

Additional observations from a re-analysis of the deposited data

Results flagged for a closer look

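In groups of 4 or more libraries, 60 combinations of gene and group were examined for a library far from its group, and 4 stood out, where chance flags about 1 in 20 (3 expected). In lipl-1, high mir-240/786p::GFP sort 4 had 4.912 CPM, far above the 3 others of that short-lived group (1.62 to 1.82 CPM). In lipl-3, low mir-243p::GFP sort 3 had 2.417 CPM, above the 3 others of that short-lived group (0.653 to 0.784 CPM). In lipl-5, low lin-4p::GFP sort 2 had 9.716 CPM, below the 5 others of that short-lived group (70.3 to 145 CPM). In lipl-6, high mir-240/786p::GFP sort 1 had 3.633 CPM, above the 3 others of that short-lived group (1.38 to 1.62 CPM). All 4 libraries belong to short-lived groups. The long-lived to short-lived difference of lipl-7 depended on the biomarker at an adjusted p of 0.0457 (edgeR quasi-likelihood, interaction), with mir-243p::GFP at 0.06 on the log2 scale beside -0.56 for lin-4p::GFP, -0.81 for mir-240/786p::GFP and -1.14 for autofluorescence.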

How the results depend on the processing

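No lipase gene that was called changed direction under any alternative. Without each library in turn, lipase genes called were 6 to 8 over all biomarkers (5437 to 5906 of all genes), 0 to 2 under lin-4p::GFP (1562 to 2093), 0 to 2 under mir-243p::GFP (15 to 195), 1 to 3 under mir-240/786p::GFP (1303 to 2384), 0 to 2 under autofluorescence (245 to 1192), and 0 to 3 for the level between biomarkers (1129 to 1651). The interaction called 0 to 0 lipase genes. With the sort as a block, lipase genes called were 4 under mir-243p::GFP and 6 under mir-240/786p::GFP, and all genes called 425 (mir-243p::GFP), 3353 (mir-240/786p::GFP) and 2146 (autofluorescence). At 0.05 the block passed 3 lipase genes and 2284 of all genes for the interaction, against 1 and 248 without it, and 5308 of all genes under mir-243p::GFP, against 3357. It changed no other count of lipase or all genes at either threshold by more than 1.5 times. It gives no value for the level between biomarkers, which it absorbs. Library totals alone called 0 lipase genes under lin-4p::GFP, mir-243p::GFP and autofluorescence and 0 for level, with 56 of all genes under mir-243p::GFP. DESeq2 called 2 lipase genes under mir-243p::GFP, 5 under mir-240/786p::GFP and 2 for level, and 713 (mir-243p::GFP), 3170 (lin-4p::GFP), 3354 (mir-240/786p::GFP) and 2034 (autofluorescence) of all genes, 2684 for level and 14 for the interaction. No filter left 1 lipase gene under autofluorescence and 0 for level. Without lin-4p::GFP sorts 1 and 2, lipase genes called were 2 under mir-243p::GFP, 5 under mir-240/786p::GFP and 3 for level, and all genes called 626 (mir-243p::GFP), 1062 (lin-4p::GFP), 3682 (mir-240/786p::GFP), 2390 (autofluorescence) and 3242 for level. A fit on the libraries of 1 biomarker alone, which has fewer libraries, called 0 lipase genes under lin-4p::GFP, mir-243p::GFP and autofluorescence, and 281, 53 and 0 of all genes, although 9 lipase genes and 8563 of all genes had an unadjusted p under 0.05 in the autofluorescence fit. Depth limits lipl-4, lipl-6 and lipl-8, which many libraries held at or near 3 counts. The causes of these changes were not tested.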

Other observations

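The genes that varied most like the lipases within groups also differed between long-lived and short-lived animals in several cases, by the test over all biomarkers. The C-type lectin genes clec-50 and clec-63, most like lipl-5, had log2 fold changes of 1.98 and 1.63 (edgeR quasi-likelihood, adjusted p = 1.39e-07 and 3.72e-07). The sphingomyelinase gene asm-3 and the gene F42A10.6, most like lipl-2, had 2.72 and 3.04 (adjusted p = 4.99e-10 and 2.17e-13). The lysozyme gene ilys-2, most like lipl-3, had 0.75 and was not called (adjusted p = 0.024), while the protease gene asp-17 had 2.26 (adjusted p = 4e-06). The genes most like lipl-6, cdka-1 and C18B2.4, had -1.05 and -0.63 (adjusted p = 1.02e-06 and 6.1e-09), and of those most like lipl-7, ced-8 had -0.45 and T22C8.3 -0.60, neither of them called (adjusted p = 0.00152 and 0.000109).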
